A study of Mus musculus with 62 samples.

Results

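Chemokines are small secreted proteins that guide cells along a gradient, and 10 of their genes were followed in mouse brown adipose tissue: Cxcl13, Ccl8, Ccl2, Ccl7, Ccl6, Ccl9, Ccl11, Cxcl1, Cxcl12 and Cxcl14. They are 10 of the 47643 gene symbols measured. The genes were selected on their measured levels in these same libraries, so their levels and differences are given as a description, with standard errors and no p-values. RNA was sequenced from 62 libraries in 12 groups. Mice received melanoma cells described as cachectic (CAC) or as non-cachectic (NCAC), or were mock injected (Con), and brown fat was taken at 2, 4, 6 and 8 weeks. In cachexia, a complication of cancer, fat and muscle waste away. Each group had 5 libraries except CAC at 8 weeks, which had 7. The mice were female and aged 2 months. The sample labels give the strain as C57BL/6J and the series text gives nude mice, which lack a thymus and most T cells, so the host's immune cells are uncertain. The extraction text mentions another tumour model, and a single sample number was given to a CAC library and a Con library at 4 weeks. The labels call the libraries biological replicates without naming the animals, so p-values measure the spread between these libraries.

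Chemokines bind receptors on the surface of target cells and direct their movement, and they are grouped by the spacing of conserved cysteines into CC (Ccl genes) and CXC (Cxcl genes) families. Inflammatory chemokines such as CCL2, CCL7, CCL8 and CXCL1 call monocytes, other leukocytes or neutrophils into a tissue, while homeostatic ones such as CXCL12 and CXCL13 hold cells in their usual places. In fat, macrophages, stromal cells and vessels are known sources of chemokines. Atypical receptors bind chemokines without the usual signalling and take them up or carry them across cells.

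Values are in TPM (transcripts scaled for their length and to a fixed total per library), so levels may be set side by side between genes. Sequencing depth is unknown, because no read totals were given. Differences are between group means of log2(TPM + 1), which understates changes of low genes. They come from 1 limma fit of all 62 libraries over the 12581 genes that reached 1 TPM or more in at least 5 libraries. Transcripts of the mitochondrial genome took 50.8% ± 3.67 (SD, n = 7) of TPM in CAC at 8 weeks and 62.8% ± 2.33 (n = 5) in Con, which leaves more of the fixed total to nuclear genes. CAC minus Con, the tested genes had a median log2 difference of 0.09, -0.08, 0.18 and 0.28 at 2, 4, 6 and 8 weeks, and 0.11, 0.06, 0.07 and 0.21 for CAC minus NCAC. Where it matters, values are also given after the libraries were rescaled by median-of-ratios factors to remove this shift. Con libraries 3 and 4 at 4 weeks held 39.6% and 39.7% of mitochondrial TPM, against 57.1% to 58.7% in the other 3, so results at 4 weeks are also given without them. The summed TPM of 6 brown adipocyte markers (Ucp1, Cidea, Adipoq, Fabp4, Pparg and Dio2) lay between 17272 and 30361 in CAC and between 17504 and 21660 in Con at 8 weeks. In whole tissue, fewer cells of a type and less RNA per cell cannot be told apart.

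The 10 genes fell into 3 levels of abundance. Ccl11, Cxcl12, Cxcl14, Ccl6 and Ccl9 reached at least 1 TPM in all 62 libraries, Ccl8 in 60 and Cxcl13 in 41. Ccl7 did so in 12 libraries, and Ccl2 and Cxcl1 in 4 each, so Ccl2 and Cxcl1 did not pass the filter and 8 of the 10 genes entered the fit. In Con at 8 weeks the 10 genes summed to 102 ± 40.0 TPM (SD, n = 5), of which Cxcl12 took on average 34.9%, Cxcl14 22.3%, Ccl11 22.0% and Ccl6 10.7%. In CAC at 8 weeks they summed to 399 ± 163 TPM (n = 7), and Cxcl13 took 27.3%, Ccl8 19.9%, Ccl6 16.4% and Cxcl12 15.8%. The sum in NCAC at 8 weeks was 104 ± 36.7 TPM (n = 5). Cxcl13 and Ccl8, at 1.06% and 3.04% of the sum in Con, had the highest means of the 10 in CAC at 8 weeks. By the median, Ccl6 (70.6 TPM) stood above Ccl8 (49.3 TPM), for which library 2 held 248.9 TPM. At 2 and 4 weeks Cxcl12 had the highest mean in CAC, 44.5 and 52.6 TPM.

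**Figure D1:**
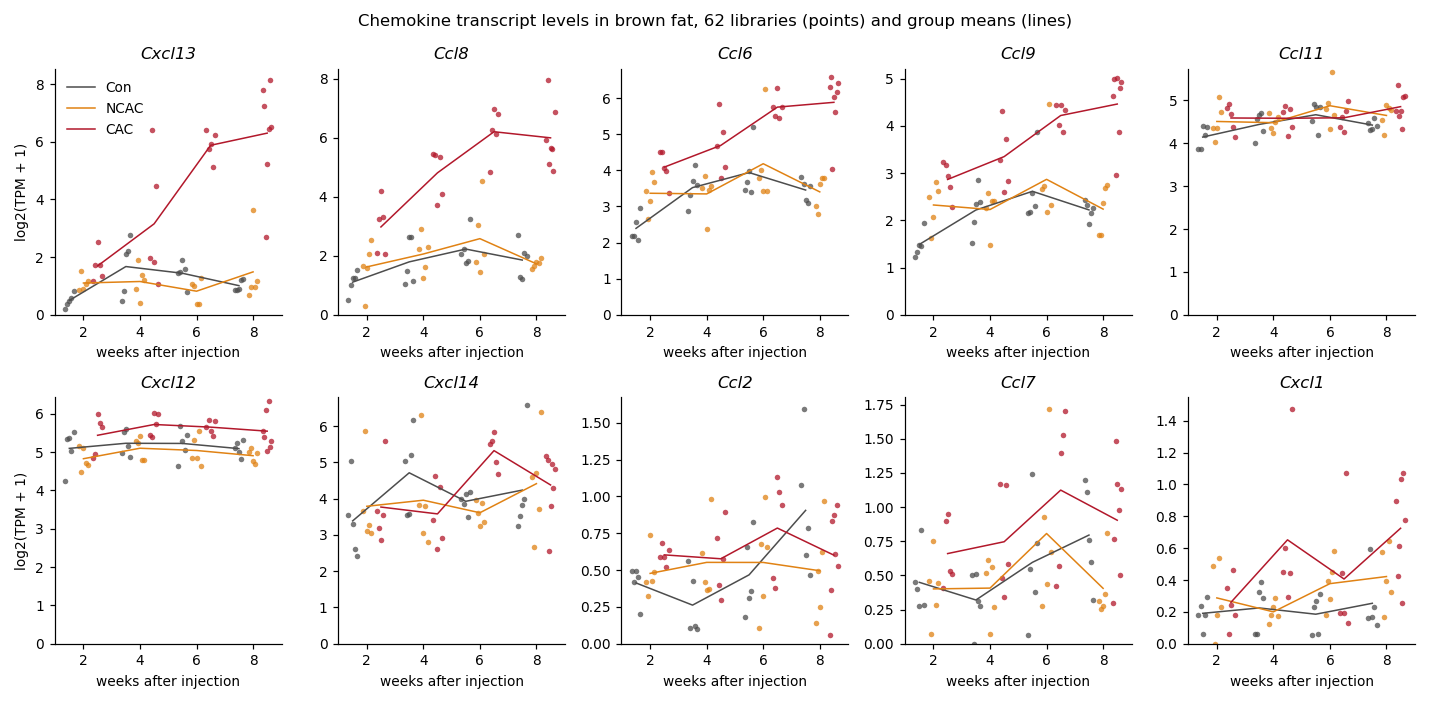
Levels of the 10 chemokine genes as log2(TPM + 1) against weeks after injection, with 1 point per library and lines through the group means of Con (grey), NCAC (orange) and CAC (red); arms are set off sideways and vertical scales differ between genes. The CAC line leaves the others for Cxcl13, Ccl8, Ccl6 and Ccl9, stays near them for Ccl11, and Ccl2, Ccl7 and Cxcl1 never exceed 2.29 TPM.

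Across the comparisons, the number of the 8 genes with a Benjamini-Hochberg adjusted p under 0.05 in the limma fit is set beside the share of all tested genes that passed in the same direction. Because the genes were selected on these values, nothing is read from the counts. Against Con, 3 of the 8 passed at 2 weeks (Ccl8, Ccl6 and Ccl9; 4.58% of all tested genes passed as higher) and 1 at 4 weeks (Ccl8; 0.819%). At 6 weeks 4 passed (Cxcl13, Ccl8, Ccl6 and Ccl9; 20.7%), and at 8 weeks 5 passed (the same 4 and Ccl11; 52.1%). Rescaling left 4 of 8 at 8 weeks, where the split over all genes went from 6549 higher and 248 lower to 1701 higher and 1615 lower. After rescaling 3 passed at 4 weeks, with Ccl6 and Ccl9 added, and the share of all genes called higher there went from 0.819% to 3.14%. Against NCAC, 0 passed at 2 weeks (0.0397% of all genes), 1 at 4 weeks (Ccl8; 0.588%), 4 at 6 weeks (Cxcl13, Ccl8, Ccl6 and Ccl9; 5.82%) and 5 at 8 weeks (these and Cxcl12; 37.3%), or 4 at 8 weeks after rescaling, when 1626 of all tested genes were higher and 1448 lower. The 2 series of comparisons share the CAC libraries. Between NCAC and Con 0 of the 8 passed at any week, where 0%, 0.00795%, 0% and 0% of all genes passed at 2, 4, 6 and 8 weeks. At an unadjusted p under 0.05, 2 of the 8 passed at 2 weeks and 0 at the later weeks, where 7.5%, 17.5%, 8.42% and 3.7% of all genes did. The change of the CAC minus Con difference from 2 to 8 weeks passed for 2 of the 8, Cxcl13 and Ccl8 (10.2% of all genes).

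**Figure D2:**
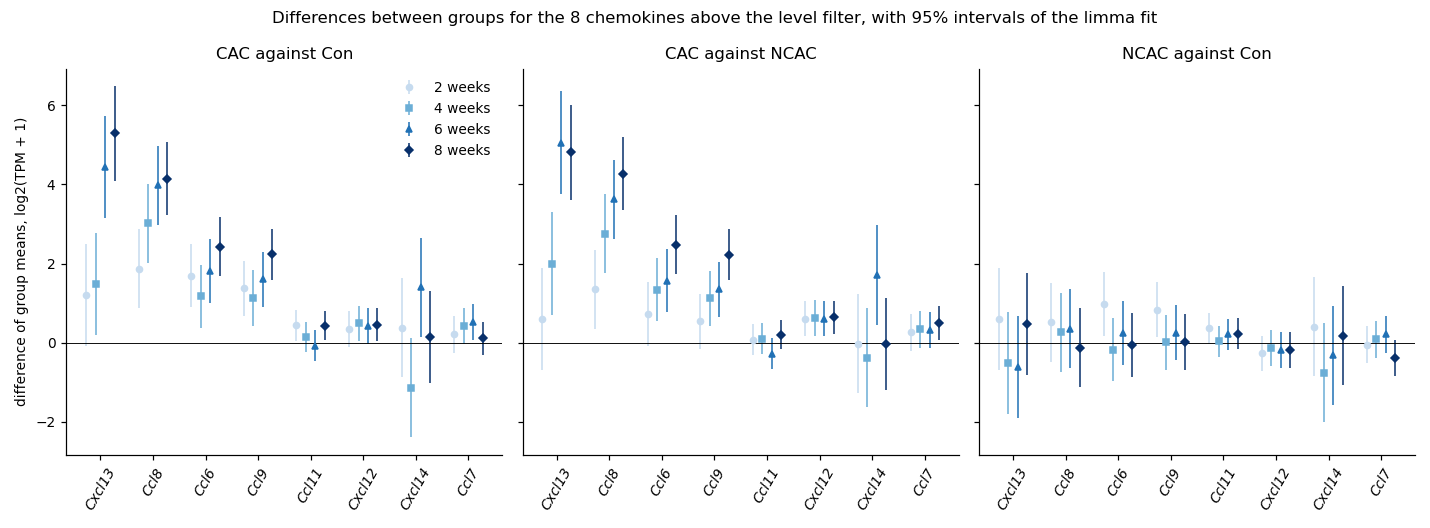
Differences of group means on the log2(TPM + 1) scale for the 8 chemokines that passed the level filter, with 95% intervals of the limma fit, in 3 panels that set CAC beside Con, CAC beside NCAC and NCAC beside Con; shade and marker give the week. Cxcl13 and Ccl8 show the highest CAC differences at 6 and 8 weeks, up to 5.29 and 4.27, while every NCAC against Con difference lies between -0.76 and 0.97.

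CXCL13 is made by stromal cells of B-cell follicles and by some macrophages, and draws B cells through the receptor CXCR5. Its gene, with 4 exons, lies on chromosome 5 at 95956951 to 95961068 on the plus strand (mm10). At 8 weeks the lowest, median and highest of the 7 CAC libraries were 5.52, 89.5 and 281 TPM, with a mean of 125 ± 99.2 (SD, n = 7). The 5 Con libraries held 0.833, 0.807, 0.859, 1.29 and 1.37 TPM. The 5 NCAC libraries held 0.612, 0.948, 11.5, 0.966 and 1.26 TPM. Every CAC library thus lay above every Con library, and CAC library 3 alone, at 5.52 TPM, lay below NCAC library 3. The log2 difference was 5.29 (SE 0.60) against Con and 4.81 (SE 0.60) against NCAC. Without CAC library 3 the differences were 5.89 (SE 0.53) and 5.41 (SE 0.53). At 6 weeks the CAC libraries were closer together, at 83.3, 52.2, 59.4, 33.7 and 73.6 TPM, and none overlapped Con (0.731 to 2.69 TPM) or NCAC (0.284 to 1.43 TPM). The difference was 4.44 (SE 0.64) against Con and 5.06 (SE 0.64) against NCAC. At 4 weeks Cxcl13 was uneven within CAC: the libraries held 2.94, 83.1, 2.57, 21.3 and 1.12 TPM, where Con held 0.399, 0.773, 3.30, 3.59 and 5.75 TPM. Libraries 2 and 4 of CAC were above all Con libraries and the other 3 were not. The difference of 1.48 (SE 0.64) went to 0.67 (SE 0.60) without CAC library 2 and to 1.80 (SE 0.75) without Con libraries 3 and 4. Against NCAC the 4-week difference of 2.00 (SE 0.64) did not pass, and it ran from 1.19 to 2.52 when 1 library was left out, passing in 1 of 10 such fits, without CAC library 5. At 2 weeks the level was low everywhere, at 2.42 ± 1.35 TPM in CAC, 1.18 ± 0.410 in NCAC and 0.429 ± 0.242 in Con (n = 5 each), yet the CAC libraries (1.26 to 4.70 TPM) and the NCAC libraries (0.814 to 1.84 TPM) all lay above the Con libraries (0.147 to 0.789 TPM), and CAC and NCAC overlapped. The CAC minus Con difference of 1.20 (SE 0.64) did not pass in the fit of all groups and did with the spread of these 2 groups alone (SE 0.23). Because the gene was selected on these values, nothing is read from that pass. In order, the group means ran from CAC at 8 weeks through CAC at 6 and 4 weeks to the remaining groups, all at or under 3.05 TPM. Con at 2 weeks had the lowest mean of the 12 groups. The mean of CAC at 2 weeks, 2.42 TPM, lay under that of Con at 4 weeks, 2.76 TPM. The ranges of CAC at 8 and 6 weeks overlapped.

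Markers of the B cells that answer CXCL13 were not higher in CAC. The receptor gene Cxcr5 stood at 0.0580 ± 0.0454 TPM in CAC (n = 7), 0.0759 ± 0.0137 in NCAC and 0.0835 ± 0.0442 in Con (n = 5 each) at 8 weeks. Of 6 B-cell markers 3 were tested. Against Con at 8 weeks Ighm, the heavy chain of immunoglobulin M, fell by 1.45 (SE 0.37, adjusted p = 0.00117). Cd79a and Cd79b, the signalling chains of the B-cell receptor, differed by -0.39 (adjusted p = 0.0692; -0.51 and 0.0302 after rescaling) and -0.19 (adjusted p = 0.353). Against NCAC at 8 weeks Ighm differed by -0.85 (adjusted p = 0.0618 by limma, or -1.10 and 0.0323 after rescaling). Its differences from Con at 2, 4 and 6 weeks were 0.15, -1.93 and -0.69, and only that at 4 weeks passed. The summed level of the 6 markers at 8 weeks was 6.14 to 18.6 TPM in CAC and 21.2 to 65.2 TPM in Con. In NCAC it was 10.9 to 40.3 TPM and overlapped CAC. The B-cell surface marker Ms4a1 was near 0 in CAC and Con, at 0.0547 and 0.0939 TPM on average. Among listed genes of follicular stroma and lymphoid organs, the complement receptor Cr2 was at 0.0224 TPM in CAC and 0.0471 TPM in Con. Ccl21a, whose near-identical copies may share its reads, differed by 0.60 (SE 0.55, adjusted p = 0.359 in the limma fit).

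CCL8 attracts monocytes and, in mice, T cells that carry the receptor CCR8. Its gene lies on chromosome 11 at 82115185 to 82116799 on the plus strand and has 3 exons. At 8 weeks the CAC libraries had a lowest, median and highest value of 28.0, 49.3 and 249 TPM (mean 83.5 ± 78.6, SD, n = 7). Con held 5.47, 1.42, 1.31, 3.30 and 3.01 TPM, and NCAC held 1.91, 2.13, 2.43, 2.40 and 2.76 TPM. No CAC library overlapped either group, and CAC library 2 stood above the next highest, at 117 TPM. The log2 difference was 4.14 (SE 0.46) against Con and 4.27 (SE 0.46) against NCAC. In contrast with Cxcl13, library 3 of CAC was not the lowest, at 33.4 TPM. Ccl8 was the only one of the 10 that stood clear of Con at every week. At 2 weeks CAC held 3.27, 8.47, 17.2, 9.03 and 3.14 TPM and Con 0.414 to 1.86 TPM (difference 1.87, SE 0.50). The Con mean at 2 weeks, 1.21 TPM, was the lowest of the 12 groups. At 4 weeks CAC held 42.5, 42.2, 12.2, 40.1 and 16.3 TPM and Con 1.06 to 5.23 TPM (3.02, SE 0.50, or 3.58, SE 0.56, without Con libraries 3 and 4). At 6 weeks the 5 CAC libraries ran from 27.6 to 125 TPM and Con from 2.38 to 8.60 TPM (3.98, SE 0.50). CAC against NCAC gave 1.35, 2.75, 3.62 and 4.27 at 2, 4, 6 and 8 weeks, with overlap at 2 weeks alone. Means of CAC at 6 and 8 weeks, 81.8 ± 38.2 and 83.5 ± 78.6 TPM, lay close together beside their SDs and were not tested against each other. Con and NCAC means all lay at or under 7.42 TPM. The pass at 2 weeks against Con was lost when CAC library 2, 3 or 4 or Con library 1 was left out, with a difference of 1.57 (SE 0.52) without CAC library 3. When each comparison was fitted on its own groups alone, Ccl8 did not pass at 4 weeks against Con (SE 0.43) or NCAC (SE 0.41), where 3 and 6 of all tested genes did.

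Ccl8 is the last of a row of 5 related chemokine genes on the plus strand of chromosome 11 that also holds Ccl2 (82035571 to 82037453), Ccl7 (82045712 to 82047525), Ccl11 (82057823 to 82062955) and Ccl12 (82101845 to 82103400), which was not among the 10. The genes of this row resemble each other, so reads shared between them could be split in counting. Neighbours in the row had different levels and differences. CCL2 is the main attractant of CCR2-bearing monocytes, and its gene stayed low: at 8 weeks CAC ran from 0.0399 to 0.923 TPM (mean 0.548 ± 0.321, n = 7), NCAC was at 0.440 ± 0.337 and Con at 0.951 ± 0.658 TPM (n = 5 each), the highest mean being that of Con. All groups overlapped at 4, 6 and 8 weeks. At 2 weeks the CAC libraries, 0.433 to 0.608 TPM, lay above the Con libraries, 0.152 to 0.409 TPM, at levels where the log scale shows little. CCL7 also acts through CCR2. Ccl7 reached its highest mean in CAC at 6 weeks, with libraries at 0.344, 0.483, 1.63, 1.88 and 2.27 TPM against 0.0477, 0.463, 1.37, 0.303 and 0.668 TPM in Con, and the groups overlapped. The differences against Con were 0.53 (SE 0.23) at 6 weeks and 0.11 (SE 0.21) at 8 weeks. At 6 weeks the difference passed when library 1 (0.70) or 2 (0.67) of CAC or library 3 (0.69) of Con was left out, and in CAC against NCAC at 8 weeks Ccl7 passed without library 1 or 6 of CAC or 5 of NCAC. CCL12 is another ligand of CCR2. Ccl12, one of the listed ligands outside the 10, rose by 2.03 (SE 0.32, adjusted p = 8.54e-06) at 6 weeks and by 1.51 (SE 0.30, adjusted p = 5.73e-05) at 8 weeks against Con. It stood at 7.15 ± 3.37 and 4.57 ± 2.86 TPM in CAC and 0.959 ± 0.653 and 0.781 ± 0.372 TPM in Con. Ccl12 starts 13340 bases before Ccl8, and Ccl11, whose levels hardly differed, starts 44022 bases before Ccl12.

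**Figure D3:**
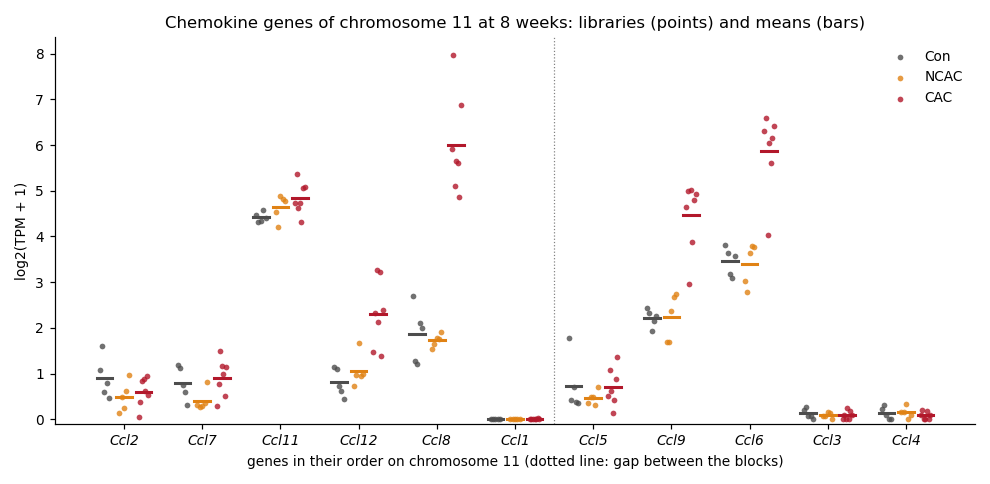
Chemokine genes of chromosome 11 at 8 weeks in their order along the chromosome, as log2(TPM + 1) for each library (points) with group means (bars) of Con, NCAC and CAC; the dotted line marks the gap between the block of Ccl2 to Ccl1 and the block of Ccl5 to Ccl4. Ccl12, Ccl8, Ccl9 and Ccl6 have CAC means well above the other groups, and those of Ccl7 and Ccl11 lie less far above. Ccl2, Ccl7, Ccl1, Ccl5, Ccl3 and Ccl4 lie below 1 TPM on average in CAC.

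Promoter sequences of the genes that moved together are shown so that they can be compared. RefSeq (GRCm38.p6, the assembly of mm10) holds 300 bases, 250 before and 50 after the start, for 7 of the 10 genes and for Ccl12. Ccl2, Ccl7 and Ccl11 had no entry. Ccl8 (chr11:82114935-82115234, plus strand), Ccl12 (chr11:82101595-82101894, plus strand) and Cxcl13 (chr5:95956689-95956988, plus strand) are given from 5′ to 3′. Capitals mark a TATA box (TATAAA) in each and, in Cxcl13, a C/EBP match (TTGCNNAA, read on the minus strand).
Ccl8: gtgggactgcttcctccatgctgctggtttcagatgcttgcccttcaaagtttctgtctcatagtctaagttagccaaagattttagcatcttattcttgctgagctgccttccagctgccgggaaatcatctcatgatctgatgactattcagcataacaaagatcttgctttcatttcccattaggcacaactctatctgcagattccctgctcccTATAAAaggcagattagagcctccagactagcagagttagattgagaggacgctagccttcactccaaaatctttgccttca
Ccl12: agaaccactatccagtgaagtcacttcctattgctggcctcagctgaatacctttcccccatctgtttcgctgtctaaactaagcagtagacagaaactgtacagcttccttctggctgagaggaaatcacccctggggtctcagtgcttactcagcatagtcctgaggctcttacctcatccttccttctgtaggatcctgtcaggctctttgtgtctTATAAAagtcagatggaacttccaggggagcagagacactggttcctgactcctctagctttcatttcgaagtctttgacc
Cxcl13: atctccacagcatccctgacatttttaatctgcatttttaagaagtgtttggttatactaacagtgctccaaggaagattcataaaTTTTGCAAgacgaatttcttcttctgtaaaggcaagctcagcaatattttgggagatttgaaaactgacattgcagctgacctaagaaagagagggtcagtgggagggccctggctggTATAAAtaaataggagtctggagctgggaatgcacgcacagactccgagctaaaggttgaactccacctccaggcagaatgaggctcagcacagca
The TATA box began at position -32 from the start in Ccl8, -31 in Ccl12 and -46 in Cxcl13. Searched on both strands, TATAAA was found in 13.6% and the C/EBP motif in 10.8% of all 32851 promoters of this length. Aligned over their length, Ccl8 and Ccl12 shared 57.4% of aligned bases, the most of the 28 pairs among 8 promoters, where the least was 45.5%. These matches are letters in a window and show no binding.

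CCL6 and CCL9 are rodent chemokines that act through CCR1 and are made by myeloid cells. Their genes are neighbours on the minus strand of chromosome 11, Ccl9 at 83572919 to 83578636 and Ccl6 at 83587882 to 83593087. At 8 weeks Ccl6 had a lowest, median and highest CAC value of 15.4, 70.6 and 95.4 TPM (mean 65.3 ± 26.7, n = 7). Con held 13.1, 11.4, 8.01, 7.53 and 10.8 TPM and NCAC 7.12, 5.92, 11.4, 12.9 and 12.7 TPM. The CAC libraries lay above both groups, with library 3 lowest and the next at 48.2 TPM. The difference was 2.43 (SE 0.37) against Con and 2.48 (SE 0.37) against NCAC, and 2.74 (SE 0.35) and 2.79 (SE 0.35) without CAC library 3. Ccl9 followed at a lower level. The CAC values at 8 weeks were 6.73, 27.0 and 31.5 TPM (lowest, median, highest), Con ran from 2.82 to 4.37 TPM and NCAC from 2.24 to 5.69 TPM. Again no library of CAC overlapped, and the differences were 2.24 (SE 0.32) and 2.22 (SE 0.32). At 2 weeks both genes stood apart from Con, whose means were then the lowest of the 12 groups. Ccl6 held 21.6, 21.8, 15.9, 14.8 and 9.40 TPM in CAC and 3.24 to 6.77 TPM in Con (1.70, SE 0.40), and Ccl9 held 8.35, 7.99, 6.69, 5.50 and 3.88 TPM against 1.35 to 2.85 TPM (1.37, SE 0.35). The pass of Ccl6 and Ccl9 at 2 weeks was lost without CAC library 1 or CAC library 2, and that of Ccl9 also without Con library 1. NCAC lay between, at 9.81 ± 3.59 TPM of Ccl6 and 4.22 ± 1.58 TPM of Ccl9 (n = 5), and overlapped CAC; its differences from Con were 0.97 (SE 0.40) and 0.83 (SE 0.35), which did not pass. At 4 weeks CAC differed from Con by 1.17 (SE 0.40) for Ccl6 and 1.13 (SE 0.35) for Ccl9, with overlap, and by 1.44 (SE 0.46) and 1.39 (SE 0.40) without Con libraries 3 and 4. Without CAC library 3 both passed at 4 weeks (1.39 and 1.32), and Ccl9 also passed without library 5 of CAC (1.26) or of Con (1.17), with the replicate block (1.13, SE 0.34), with a pseudocount of 0.1 (1.31) and with the filter at 5 TPM. At 6 weeks the differences were 1.81 (SE 0.40) and 1.60 (SE 0.35), and no CAC library overlapped Con. Single libraries outside CAC were high in both genes. NCAC library 4 at 6 weeks held 75.3 TPM of Ccl6 where the other 4 held 9.70 to 15.0, and 20.9 TPM of Ccl9 where they held 3.51 to 5.61. Con library 5 at 6 weeks held 35.5 and 13.5 TPM. The summed level of 13 macrophage markers in these 2 libraries was 431 and 395 TPM, each the highest of its group, and that of 6 eosinophil markers was 42.7 and 13.3 TPM where the group medians were 1.83 and 1.59 TPM. Without NCAC library 4 the differences of CAC from NCAC at 6 weeks were 2.08 (SE 0.37) for Ccl6 and 1.75 (SE 0.33) for Ccl9, in place of 1.57 and 1.35. With all libraries but only the compared groups in the fit, the Ccl6 difference of 1.57 (SE 0.47) did not pass. Library 2 of CAC at 4 weeks and library 3 of CAC at 8 weeks were the highest and the lowest of their groups for Ccl6 and Ccl9 and also for the macrophage sum, at 373 and 256 TPM. The part of macrophage number in these values was not tested.

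The ratio of Ccl6 to Ccl9 moved less than the levels did. Over the 62 libraries Ccl6 ran from 3.24 to 95.4 TPM and Ccl9 from 1.35 to 31.5 TPM, whereas their ratio ran from 1.86 to 3.67 with a median of 2.67. The median ratio was 2.87 in CAC, 2.65 in NCAC and 2.85 in Con at 8 weeks. Over the 12 groups the median ran from 2.37 (Con at 2 weeks) to 2.96 (CAC at 6 weeks). The ratio of Ccl8 to Ccl6, by comparison, ran from 0.0456 to 2.61 over the same libraries, with a median of 0.332, and its group medians were 0.996 in CAC and 0.277 in Con at 8 weeks. Values of 1 library share its depth and composition, so these ratios are a description.

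**Figure D4:**
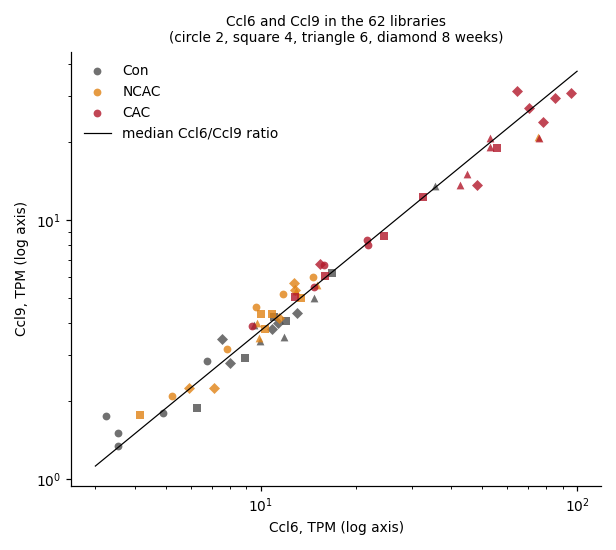
Ccl9 against Ccl6 in TPM on log axes for the 62 libraries, coloured by arm and shaped by week, with a line at the median Ccl6 to Ccl9 ratio of 2.67. The libraries keep close to the line from the lowest (Con at 2 weeks) to the highest (CAC at 6 and 8 weeks and 1 NCAC library).

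The promoters of this pair are shown for the same reason. Both lie on the minus strand, Ccl9 at chr11:83578587-83578886 and Ccl6 at chr11:83593038-83593337 (RefSeq, GRCm38.p6), and are printed in the direction of transcription. Capitals mark TATA boxes on either strand and a kappaB match (GGG and TTCC parted by any 3 bases, here on the minus strand) in Ccl9; Ccl6 held none of the motifs searched.
Ccl9: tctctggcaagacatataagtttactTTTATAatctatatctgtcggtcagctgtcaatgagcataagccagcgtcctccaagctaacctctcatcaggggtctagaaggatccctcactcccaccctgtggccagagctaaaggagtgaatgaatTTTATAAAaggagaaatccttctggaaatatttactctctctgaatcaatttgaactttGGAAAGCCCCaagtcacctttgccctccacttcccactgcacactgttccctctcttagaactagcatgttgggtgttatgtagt
Ccl6: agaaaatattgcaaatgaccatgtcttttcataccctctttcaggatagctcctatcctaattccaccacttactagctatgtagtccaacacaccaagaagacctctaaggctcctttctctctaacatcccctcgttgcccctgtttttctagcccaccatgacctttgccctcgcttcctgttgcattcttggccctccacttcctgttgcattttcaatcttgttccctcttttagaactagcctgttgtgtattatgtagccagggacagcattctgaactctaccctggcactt
Their longest shared run was the 13 bases gccctccacttcc, at position -14 in Ccl9 and -55 in Ccl6, the longest of the 28 pairs, the next being the 11 bases of Ccl8 and Ccl12. Aligned end to end, the promoters shared 49.7% of bases, within the range of the other pairs. Such an alignment can miss a match that lies at different positions in each promoter. After the shared run, both printed sequences also hold tgttccctct and then ttagaactagc. The kappaB match of Ccl9 began at -35. The kappaB motif was found in 5.56% of all promoters.

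CXCL1 draws neutrophils through CXCR2 and is a classic target of the transcription factor NF-kappaB. Cxcl1 (chromosome 5, 90891241 to 90893115, plus strand) remained under 1 TPM in 58 of 62 libraries. At 8 weeks CAC ran from 0.192 to 1.10 TPM (mean 0.685 ± 0.346, n = 7), NCAC was at 0.349 ± 0.179 and Con at 0.202 ± 0.174 TPM (n = 5 each), and the groups overlapped. The highest library was CAC library 5 at 4 weeks, with 1.78 TPM where the other 4 held 0.225 to 0.519 TPM. Its promoter, chr5:90890995-90891294, is printed because it held the most kappaB matches of the 8 promoters, 3 in number, with 2 overlapping on opposite strands; capitals mark them.
Cxcl1: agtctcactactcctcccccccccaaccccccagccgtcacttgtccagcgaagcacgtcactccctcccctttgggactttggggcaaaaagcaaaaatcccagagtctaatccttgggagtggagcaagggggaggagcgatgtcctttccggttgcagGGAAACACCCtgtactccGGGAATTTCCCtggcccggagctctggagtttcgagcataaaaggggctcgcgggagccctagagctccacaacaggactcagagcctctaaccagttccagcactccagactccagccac
The receptor Cxcr2 did not pass the filter and stood at 0.510 ± 0.189 TPM in CAC and 0.156 ± 0.0751 TPM in Con at 8 weeks.

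CCL11, or eotaxin, draws eosinophils through CCR3, and it was present at a steady level. At 8 weeks the CAC values were 19.1, 25.8 and 40.0 TPM (lowest, median, highest; mean 28.6 ± 7.03, n = 7), and the Con libraries held 21.3, 18.9, 19.2, 23.0 and 20.1 TPM. The groups overlapped. The difference of 0.43 (SE 0.18) passed as deposited, was 0.09 (SE 0.16) after rescaling and did not pass then. It also did not pass without library 2, 6 or 7 of CAC or 1, 2, 3 or 5 of Con, where it lay between 0.35 and 0.44, nor with the replicate block (0.34, SE 0.20) or without a level filter. Over the 12 groups the mean ran from 16.9 TPM (Con at 2 weeks) to 29.8 TPM (NCAC at 6 weeks). The highest of all 62 libraries was NCAC library 4 at 6 weeks, with 49.2 TPM. The CCL11 receptor gene Ccr3 was near 0 at 8 weeks, at 0.00204 TPM in CAC and 0.0459 TPM in Con, and the eosinophil marker Siglecf was at 0.00682 and 0.0365 TPM. NCAC library 4 at 6 weeks, the highest for Ccl11, held 2.09 TPM of Ccr3 where the other 4 held 0.0112 to 0.0781 TPM.

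CXCL12 binds CXCR4 and the atypical receptor ACKR3 and retains blood-forming and immune cells in tissue; stromal and endothelial cells make it. Cxcl12 (chromosome 6, 117168535 to 117181367) was the most abundant of the 10 in Con. At 8 weeks CAC had 31.9, 41.0 and 79.1 TPM (lowest, median, highest; mean 48.3 ± 18.1, n = 7), Con held 33.3, 36.5, 31.2, 27.2 and 38.6 TPM and NCAC 31.2, 33.4, 26.1, 24.8 and 30.4 TPM. CAC overlapped both, and libraries 3 and 5 of CAC were the 2 highest, at 67.8 and 79.1 TPM. The difference from NCAC was alike at each week, at 0.61, 0.62, 0.61 and 0.64 (SE 0.22, 0.22, 0.22 and 0.21; 0.74, SE 0.23, at 6 weeks without NCAC library 4, when it passed), and 0.48, 0.55, 0.53 and 0.39 after rescaling. Against Con it was 0.34, 0.49, 0.43 and 0.46, and 0.21, 0.58, 0.21 and 0.11 after rescaling. At 8 weeks Cxcl12 passed against Con without CAC library 4, 6 or 7 (0.50 to 0.54) and with the replicate block (0.59). CAC means lay between 44.5 and 52.6 TPM, Con means between 33.3 and 37.6 TPM and NCAC means between 27.9 and 33.9 TPM. Weeks within an arm were not tested against each other.

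CXCL14 is made by epithelia and fat and its receptor is less settled. Cxcl14 (chromosome 13, 56288643 to 56296551) was the most uneven of the abundant genes. At 8 weeks Con held 8.53, 10.6, 13.1, 14.9 and 94.7 TPM, NCAC 23.1, 5.34, 25.2, 12.1 and 82.6 TPM, and CAC 4.83, 27.4 and 34.8 TPM (lowest, median, highest). The highest value of Con and that of NCAC each exceeded every CAC library, and the difference between CAC and Con was 0.14 (SE 0.58). All 3 arms held single high libraries at other weeks. They were NCAC library 2 at 2 and 4 weeks, with 57.8 and 78.6 TPM, Con library 5 at 4 weeks, with 71.3 TPM, and, at 2 weeks, CAC library 5 with 47.4 TPM and Con library 2 with 32.1 TPM. At 6 weeks the arms separated: CAC held 44.5, 47.0, 55.8, 31.1 and 24.8 TPM, above Con (10.2 to 17.1 TPM) and NCAC (8.50 to 14.5 TPM). That difference was 1.40 (SE 0.63) against Con and 1.71 (SE 0.63) against NCAC. It did not pass in the fit of all groups, whose spread takes in all weeks, and passed with the compared groups alone (SE 0.21 and 0.22). Because the gene was selected on these values, nothing is read from that pass. At 4 weeks the difference from Con was in the other direction, at -1.13 (SE 0.63), or -1.34 (SE 0.73) without Con libraries 3 and 4.

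Few receptors of these chemokines were expressed above the filter. Of 18 conventional chemokine receptor genes 6 were tested, and 2 rose and 0 fell in CAC against Con at 8 weeks (2 and 0 after rescaling). Of all tested genes 52.1% rose and 1.97% fell there (13.5% and 12.8% after rescaling). The share of the 6 that rose was thus below that of all genes as deposited and above it after rescaling. With so few genes, nothing is read from the count. As deposited, the median difference of the 6 was 0.12 where that of all genes was 0.28. Ccr1, the receptor of CCL6 and CCL9, stood at 1.47 ± 0.594 TPM in CAC and 0.358 ± 0.126 in Con and rose by 0.83 (SE 0.17, adjusted p = 5.56e-05), with all 7 CAC libraries above all Con libraries. The receptor of CCL2, CCL7 and CCL12, Ccr2, differed by 0.07 (SE 0.18, adjusted p = 0.761), and that of CXCL12, Cxcr4, by 0.18 (SE 0.23, adjusted p = 0.516). Ccr10 and Cx3cr1, which bind none of the 10, differed by -0.28 and -0.25 and did not pass. Ccr8 was listed at 0 in all CAC and NCAC libraries at 8 weeks. At 6 weeks Ccr1 rose by 1.08 (SE 0.18, adjusted p = 1.76e-05). Against NCAC, Ccr1 rose by 0.72 (SE 0.18, adjusted p = 0.00567) at 6 weeks and 0.93 (SE 0.17, adjusted p = 1.98e-05) at 8 weeks.

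Of 5 atypical receptor genes 4 were tested. Ackr1, which binds many inflammatory chemokines on venules and red cells, rose at all weeks against Con: by 1.18 (SE 0.22, adjusted p = 0.00161) at 2 weeks, 0.84 (SE 0.22, adjusted p = 0.02) at 4 weeks, 1.22 (SE 0.22, adjusted p = 5.59e-05) at 6 weeks and 1.66 (SE 0.20, adjusted p = 5.27e-09) at 8 weeks. It stood at 8.01 ± 3.17 TPM in CAC (n = 7), 2.39 ± 0.975 in NCAC and 1.72 ± 0.337 in Con (n = 5 each) at 8 weeks. Against NCAC, Ackr1 rose by 0.90 (SE 0.22, adjusted p = 0.0303) at 4 weeks, 1.12 (SE 0.22, adjusted p = 0.00033) at 6 weeks and 1.39 (SE 0.20, adjusted p = 4.31e-07) at 8 weeks. Every CAC library lay above every NCAC library at each week, and above every Con library at 2, 6 and 8 weeks. At 2 weeks the difference from NCAC, 0.65 (SE 0.22, adjusted p = 0.239 by limma), did not pass. NCAC then differed from Con by 0.53 (SE 0.22, adjusted p = 0.526 by limma). The 4-week call of Ackr1 against Con ended when library 2 (0.66) or 4 (0.74) of CAC, or 1 (0.69) or 3 (0.77) of Con, was left out. That against NCAC ended when library 2 (0.72) or 4 (0.79) of CAC, or 3 (0.77), 4 (0.91) or 5 (0.91) of NCAC, was left out. Ackr2, a scavenger of inflammatory CC chemokines, rose by 0.63 (SE 0.18, adjusted p = 0.0264) at 2 weeks and 0.52 (SE 0.16, adjusted p = 0.00656) at 8 weeks against Con, and the latter was 0.35 (adjusted p = 0.0766) after rescaling. The call of Ackr2 at 2 weeks was lost without library 1, 2 or 4 of CAC or 1 or 2 of Con, where it lay between 0.55 and 0.67. Against NCAC at 8 weeks Ackr2 rose by 0.41 (adjusted p = 0.04), a call lost on rescaling and without library 1, 2 or 6 of CAC or 1, 2 or 4 of NCAC, where it lay between 0.29 and 0.43. Ackr3, the scavenger of CXCL12, was abundant, at 56.2 ± 23.9 TPM in CAC and 49.6 ± 11.2 TPM in Con, and differed by 0.06 (SE 0.33, adjusted p = 0.886). Ccrl2 differed by -0.07 and did not pass.

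**Figure D5:**
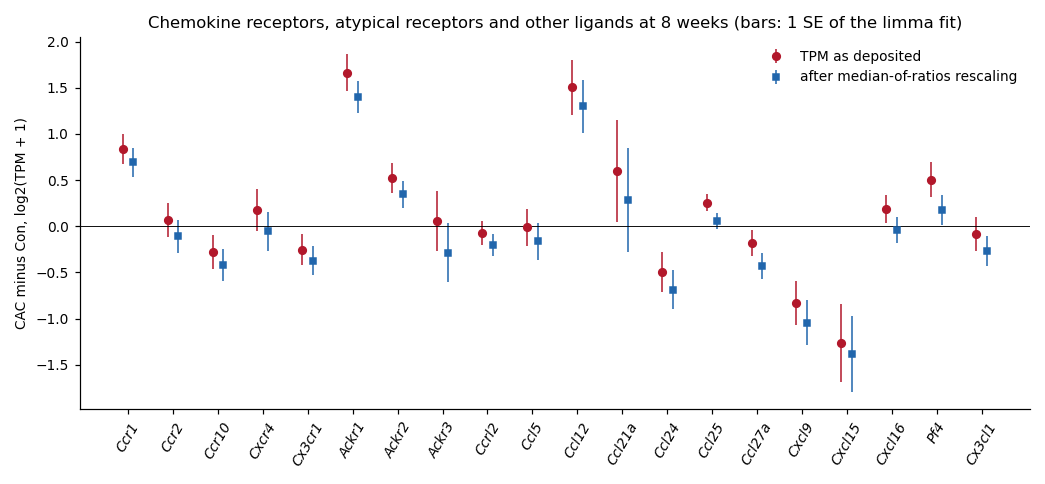
CAC minus Con at 8 weeks on the log2(TPM + 1) scale for 5 of the 6 tested conventional receptors and all tested atypical receptors and other chemokine ligands, as deposited (red circles) and after median-of-ratios rescaling (blue squares), with bars of 1 SE of the limma fit. Ackr1 and Ccl12 are the highest, at 1.66 and 1.51, and Cxcl15 and Cxcl9 the lowest, at -1.26 and -0.83.

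Among 29 other chemokine ligand genes in the file 11 were tested. At 8 weeks 3 rose and 2 fell against Con (1 and 4 after rescaling), where 52.1% of all genes passed as higher and 1.97% as lower (13.5% and 12.8% after rescaling), and their median difference was -0.01. Besides Ccl12, Pf4, a chemokine of platelets and macrophages, rose by 0.50 (SE 0.19, adjusted p = 0.022) and Ccl25 by 0.26 (SE 0.10, adjusted p = 0.0201), and both calls were lost on rescaling. The Pf4 call was also lost without CAC library 2 (0.42) or Con library 4 (0.46), and the Ccl25 call without Con library 5 (0.19). Cxcl9, an interferon-induced ligand of CXCR3, fell by 0.83 (SE 0.24, adjusted p = 0.00331) and stood at 0.965 ± 0.418 TPM in CAC and 2.63 ± 1.43 TPM in Con. Cxcl15 fell by 1.26 (SE 0.42, adjusted p = 0.00978). Ccl24, which shares CCR3 with CCL11, differed by -0.50 (SE 0.22, adjusted p = 0.0527), and by -0.69 (adjusted p = 0.0117) after rescaling. Ccl24 also passed without library 3, 4 or 6 of CAC or 1 of Con, at -0.54 to -0.60. At 6 weeks, where 0.978% of all genes passed as lower against Con, Cxcl9 fell by 1.38 (SE 0.26, adjusted p = 0.00012) and Ccl24 by 0.84 (SE 0.24, adjusted p = 0.00983). Against NCAC at 6 weeks Ccl12 rose by 1.75 (SE 0.32, adjusted p = 0.000148), while Ccl24, Ccl27a and Cxcl9 fell by 1.29, 0.52 and 1.23 (1.95% of all genes passed as lower). The Ccl27a call was lost without CAC library 1 (-0.47) or 4 (-0.41). Against NCAC at 8 weeks Ccl12 rose by 1.26 (SE 0.30, adjusted p = 0.000885) and Cxcl9 fell by 0.71 (SE 0.24, adjusted p = 0.0159), with 1.98% of all genes passing as lower. The Cxcl9 call was lost without NCAC library 2 (-0.62). Pf4 rose by 0.52 (SE 0.19, adjusted p = 0.025), a call lost on rescaling and without library 2 of CAC or 1, 2 or 3 of NCAC, where it lay between 0.42 and 0.48. Ccl24 was the only tested receptor or ligand whose difference from Con changed between 2 and 8 weeks, by -1.18 (SE 0.32, adjusted p = 0.0147), where 1.42% of all genes changed downward. Ccl24 also fell at 4 weeks by 0.80 (SE 0.24, adjusted p = 0.0444; 3.03% of all genes passed as lower), a call lost without library 2, 3, 4 or 5 of CAC or 3 or 4 of Con, where it lay between -0.68 and -0.82, and at -0.63 without both Con libraries, and Pf4 rose at 2 weeks by 0.94 (SE 0.20, adjusted p = 0.00715). Between NCAC and Con 0 of the 21 tested receptors and ligands passed by limma at any week. At an unadjusted p under 0.05 there were 4 at 2 weeks, 2 at 4 weeks and 0 at 6 and 8 weeks, where 7.5%, 17.5%, 8.42% and 3.7% of all genes passed.

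A list of 25 cytokine and NF-kappaB genes, of which 16 were tested, covers signals known to induce chemokines and targets of such signals. The list was chosen with earlier results of these data known, and transcript levels do not measure signalling. The cytokine genes themselves were low: at 8 weeks Tnf stood at 0.146 ± 0.0859 TPM in CAC and 0.151 ± 0.0417 in Con, and Il6 at 0.166 ± 0.113 and 0.0257 ± 0.0327 TPM. Of the 16, 15 rose and 0 fell at 8 weeks against Con (11 and 0 after rescaling), where 52.1% of all genes rose (13.5% after rescaling), with a median difference of 0.75 against 0.28 over all genes. Socs3, an inhibitor induced by STAT3, rose by 2.45 (SE 0.26, adjusted p = 1.53e-10), and stood at 14.6 ± 6.47 TPM in CAC and 1.58 ± 0.126 TPM in Con. CAC library 3, the lowest for Cxcl13, Ccl6 and Ccl9, was also the lowest for Socs3, at 4.12 TPM. The transcription factor genes Cebpd and Stat3 rose by 2.21 (SE 0.32, adjusted p = 2.63e-07) and 1.82 (SE 0.19, adjusted p = 1.58e-10). The receptor genes Tnfrsf1a and Il1r1 rose by 1.22 (SE 0.17, adjusted p = 1.47e-07) and 1.18 (SE 0.14, adjusted p = 1.96e-09). The NF-kappaB subunit gene Nfkb1 rose by 0.33 (adjusted p = 0.00265) as deposited and differed by 0.01 (adjusted p = 0.904) after rescaling. At 6 weeks 11 rose (7 after rescaling), where 20.7% of all genes did (5.36%), with Socs3 at 2.28, Stat3 at 1.78, Cebpd at 1.63, Il1r1 at 1.10 and Tnfrsf1a at 1.10.

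Most markers of macrophages, monocytes and neutrophils were higher in CAC than in Con at 8 weeks, when Cxcl13, Ccl8, Ccl6 and Ccl9 were also higher. The marker counts at 8 weeks stand beside 52.1% of all tested genes that rose and 1.97% that fell (13.5% and 12.8% after rescaling). Of 13 macrophage markers 12 rose and 0 fell in CAC against Con at 8 weeks (12 and 1 after rescaling), among them the scavenger receptor Cd163 by 2.53 (SE 0.28, adjusted p = 8.18e-10) and the complement subunit C1qa by 1.67 (SE 0.24, adjusted p = 2.97e-07). Their summed level ran from 256 to 631 TPM in CAC, 102 to 191 TPM in NCAC and 131 to 170 TPM in Con. Of 5 monocyte markers 4 rose, the exception being Ccr2, and 4 of 5 tested neutrophil markers rose, with S100a8 at 1.15 (SE 0.29, adjusted p = 0.000952). The monocyte sum was 22.3 to 80.0 TPM in CAC and 13.4 to 17.9 TPM in Con, and the neutrophil sum 14.6 to 55.3 and 7.49 to 16.1 TPM. At 2 weeks 9 of the 13 macrophage markers rose against Con (4.58% of all genes), and at 4 weeks 1 did (0.819%), or 4 after rescaling (3.14%). None of 6 T-cell markers passed the filter, and their sum was at most 1.85 TPM in a library at 8 weeks. Of 8 fibroblast markers 2 rose and 0 fell (1 and 1 after rescaling), of 5 endothelial markers 3 rose and 1 fell (1 and 1), and of 5 epithelial markers 0 rose and 3 fell (0 and 3). Of 2 tested mesothelial markers 1 rose and 1 fell (0 and 1), of 6 brown adipocyte markers 4 rose and 1 fell (2 and 1), and 0 of 6 skeletal muscle markers and 0 of 1 tested eosinophil marker passed. At 2 weeks, by contrast, 6 of 6 skeletal muscle markers and 5 of 8 fibroblast markers rose against Con. The muscle sum was 961 to 10580 TPM in CAC, 847 to 3103 in NCAC and 58.1 to 1734 in Con, and the fibroblast sum 472 to 719 TPM in CAC and 236 to 338 in Con. The 1 tested melanocyte marker did not pass, and the 6 melanocyte markers summed to 1.84 to 4.55 TPM in CAC and 1.41 to 6.91 TPM in Con. The part of any of these cell types in the chemokine levels was not tested.

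The genes whose 12 group means of log2(TPM + 1) followed each chemokine most closely are given by Pearson's r, as a description over groups that share libraries' composition. For Cxcl13 they were Tmem252 (0.99), Igfbp3 (0.988) and Apoc2_1 (0.987), and for Ccl8 Wfdc17 (0.991), Socs3 (0.991) and Il1r1 (0.987). Ccl6 was followed by Ccl9 (0.996), Ifi202b (0.993) and Clec10a (0.988), and Ccl9 by Ifi202b (0.996), Ccl6 (0.996) and Alox5ap (0.992). The others had less close companions: Ccl11 had Cyp2e1 (0.933), Slc7a10 (0.917) and Capg (0.888), Cxcl12 had Slco2b1 (0.939), Gimap8 (0.937) and Ets2 (0.932), Ccl7 had Zfp729a (0.867), Atxn3 (0.863) and Fbxo30 (0.855), and Cxcl14 had Sgcb (0.852), Coq7 (0.812) and Fam120aos (0.803). Among the chemokines themselves, Ccl8 went with Ccl9 (0.97), Ccl6 (0.963) and Cxcl13 (0.949), while Ccl11 and Cxcl14 gave 0.16 and Ccl11 and Cxcl12 0.227.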

How the data were processed

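Brown adipose RNA, extracted with Trizol, was made into TruSeq stranded mRNA libraries and sequenced on a NovaSeq instrument, per the labels' protocols. The authors deposited 1 table of TPM values per gene symbol for 62 libraries, with no read counts; the build was mm10 per the submitters' processing notes, and the aligner and quantifier are not given in the sources used here. Each library held 10851 to 12347 genes at 1 TPM or more, and 0 pairs of libraries were identical. Low-level precision cannot be stated without depth.

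Libraries were grouped by their labels. Values were tested as log2(TPM + 1) with limma 3.58.1 (R 4.3.3; lmFit and eBayes with trend) in 1 fit of the 12 groups over genes with at least 1 TPM in 5 libraries. The 2-sided p-values were adjusted by Benjamini-Hochberg over all 12581 genes within each of 13 contrasts, at a threshold of 0.05. The method was tested on simulated data. Alternatives were a pseudocount of 0.1, no filter, a filter of 5 TPM, median-of-ratios rescaling (factors 0.786 to 1.36 from 14432 genes), the replicate number as a block, each library left out, Con libraries 3 and 4 of 4 weeks left out, and only the compared groups.

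The 10 chemokines and all lists of receptors, ligands, cytokine genes and cell markers were chosen with earlier results of these data known. Named were the 10 chemokines, tested receptors known to bind one of them, up to 5 highest and 5 lowest called genes of the ligand and cytokine lists against Con at 6 and 8 weeks, the 3 genes most like each chemokine among those with at least 5 TPM in the highest group, 1 to 3 markers per list, and each listed gene whose difference changed from 2 to 8 weeks. The values of 1 tested conventional receptor, which is included in the counts, are not reported here. Ccr10, Cx3cr1, Nfkb1, Tnf and Il6 were named after their values were seen, as were genes named at 2 and 4 weeks or against NCAC. Promoters came from RefSeq (GRCm38.p6), gene positions from GENCODE vM21. Levels and figures were made with Python 3.11.15, pandas 2.3.3, numpy 2.4.6, scipy 1.17.1 and matplotlib 3.10.9.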

Additional observations from a re-analysis of the deposited data

Results flagged for a closer look

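Among 120 sets of a chemokine in a group of 5 or 7 libraries, 13 held a library far from the others by Dixon's criterion on log2(TPM + 1), where chance alone flags about 1 in 20, or 6 sets. Cxcl13 stood at 11.48 TPM in NCAC library 3 at 8 weeks, where the others held 0.612 to 1.26 TPM. Ccl2 was low in Con library 5 at 2 weeks, at 0.152 TPM where the others held 0.340 to 0.409 TPM, and Ccl7 was high in NCAC library 5 at 8 weeks, at 0.7558 TPM where they held 0.194 to 0.287 TPM.

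Ccl6 and Ccl9 were out of line in the same libraries more than once. At 4 weeks NCAC library 3 was low in both, at 4.145 TPM of Ccl6 (the highest other 13.4) and 1.768 TPM of Ccl9 (the others 3.79 to 4.99), and it had the lowest macrophage marker sum of its group, 114 TPM. NCAC library 4 at 6 weeks was high in both, at 75.35 TPM of Ccl6 and 20.95 TPM of Ccl9, with a macrophage sum of 431 TPM. Con library 5 at 6 weeks held 13.51 TPM of Ccl9 where the others held 3.42 to 4.99 TPM, and its macrophage sum was 395 TPM. It was also the highest of its group for Ccl6, at 35.5 TPM, which did not meet the criterion. CAC library 3 at 8 weeks held 15.38 TPM of Ccl6 where the others held 48.2 to 95.4 TPM, and its macrophage sum was 256 TPM. The part of macrophages in these values was not tested.

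Cxcl1 reached 1.775 TPM in CAC library 5 at 4 weeks and 0.508 TPM in Con library 2 at 8 weeks, where the others of these groups held 0.225 to 0.519 and 0.0827 to 0.172 TPM. Cxcl14 reached 57.77 TPM in NCAC library 2 at 2 weeks and 94.66 TPM in Con library 5 at 8 weeks, where the others held 7.25 to 11.5 and 8.53 to 14.9 TPM.

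Among the listed genes outside the 10, the CAC minus Con difference itself changed between 2 and 8 weeks for 26 by the limma contrast of both weeks, where 10.2% of all tested genes changed upward and 1.42% downward. The 26 pool both directions and several lists, so nothing is read from their number. Ccl24 changed by -1.1849 (adjusted p = 0.0147). Genes of STAT3 signalling changed by 1.7521 (Socs3, adjusted p = 0.00229), 1.2319 (Stat3, adjusted p = 0.00364) and 1.4032 (Cebpd, adjusted p = 0.0413). Receptor genes changed by 0.8802 (Tnfrsf1a, adjusted p = 0.0187) and 0.479 (Ltbr, adjusted p = 0.0342). NF-kappaB subunits and regulators changed by 1.0882 (Nfkbiz, adjusted p = 0.00451), 0.611 (Rela, adjusted p = 0.0117) and 0.63 (Relb, adjusted p = 0.0334). The targets Birc3 and Icam1 changed by 0.6215 (adjusted p = 0.0102) and 0.8445 (adjusted p = 0.0283). Rescaling ended the calls of Ltbr (0.27), Relb (0.46), Icam1 (0.65) and Cebpd (1.22). Of 22 fits that left out 1 library, 8 ended that of Ltbr, 8 that of Relb, 3 that of Icam1 and 15 that of Cebpd. With the replicate block the calls of Tnfrsf1a (0.80), Ltbr (0.48) and Cebpd (1.29) ended.

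Marker genes that changed in the same contrast were, for macrophages, Cd163 by 1.394 (adjusted p = 0.0249), Mertk by 1.0056 (adjusted p = 0.00988) and Timd4 by -0.8847 (adjusted p = 0.00464). Monocyte and neutrophil markers changed by 0.9887 (Ly6c2, adjusted p = 0.0102), 0.8918 (Chil3, adjusted p = 0.00404), 1.7325 (S100a9, adjusted p = 0.0182) and 0.8016 (Csf3r, adjusted p = 0.00139). The fibroblast markers Dpt and Dpp4 changed by -1.2645 (adjusted p = 0.00551) and -1.1363 (adjusted p = 0.00303), and the B-cell marker Ighm by -1.6014 (adjusted p = 0.0467). Endothelial markers changed by 0.694 (Pecam1, adjusted p = 0.0132), 0.6615 (Tie1, adjusted p = 0.0236) and 1.0676 (Plvap, adjusted p = 0.0456), and brown adipocyte markers by 0.4947 (Cidea, adjusted p = 0.0331) and 0.6249 (Fabp4, adjusted p = 0.024). Rescaling ended the calls of S100a9, Pecam1, Tie1, Plvap, Cidea and Fabp4. The block ended those of Cd163 (1.31), Ighm (-1.35), Plvap (0.96), Cidea (0.46) and Fabp4 (0.56). Of 22 fits that left out 1 library, 14 ended the call of Ighm, 13 that of Plvap, 9 that of Cidea, 3 that of Tie1, 2 that of Cd163 and 1 that of Fabp4.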

How the results depend on the processing

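The numbers of tested receptors and other ligands that passed, CAC against Con, were 3, 2, 6 and 9 at 2, 4, 6 and 8 weeks, and 0, 1, 6 and 7 against NCAC; 1 changed between 2 and 8 weeks. Without a level filter 0 passed against NCAC at 4 weeks and 2 changed. With 5 TPM as the filter, where fewer genes were tested, 1, 2 and 3 passed against Con at 4, 6 and 8 weeks, 2 and 3 against NCAC at 6 and 8 weeks, and 0 changed. Fitting only the compared groups gave 5 and 0 against Con at 2 and 4 weeks and 0 against NCAC at 4 weeks. Without Con libraries 3 and 4 at 4 weeks 1 passed. The causes were not tested.

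Leaving out 1 library gave 2 to 4, 0 to 2, 5 to 7 and 8 to 10 against Con and 0, 0 to 1, 5 to 7 and 4 to 8 against NCAC. At 4 weeks 0 passed against Con without library 2 or 4 of CAC or 3 of Con, and 0 against NCAC without library 2 or 4 of CAC or 3, 4 or 5 of NCAC; at 8 weeks 4 passed against NCAC without NCAC library 2.

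Same-numbered libraries were correlated between -0.389 and 0.484 in their deviations, and in no comparison did all 5 pairs exceed 0.1, so the numbers do not pair the libraries; with the replicate block 5 in place of 7 passed against NCAC at 8 weeks.

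Over all genes the calls against Con numbered 582, 484, 2731 and 6797, and against NCAC 5, 74, 977 and 4947; 1457 changed, and 0, 1, 0 and 0 passed between NCAC and Con. Rescaling gave 1042 and 3316 against Con at 6 and 8 weeks, 2, 123 and 3074 against NCAC at 2, 4 and 8 weeks, 5 for NCAC against Con at 2 weeks and 883 that changed. The block gave 3 against NCAC at 2 weeks and 866 that changed. No filter gave 30 and 44 against NCAC at 2 and 4 weeks, and 2 and 1 for NCAC against Con at 4 and 6 weeks. A filter of 5 TPM gave 341 against Con and 3 against NCAC at 2 weeks. Without Con libraries 3 and 4, 81 passed against Con and 0 between NCAC and Con at 4 weeks. Only the compared groups gave 1207 and 3 against Con at 2 and 4 weeks, 0, 6 and 2736 against NCAC at 2, 4 and 8 weeks, and 26 and 0 for NCAC against Con at 2 and 4 weeks. Leaving out 1 library gave 58 to 888, 65 to 948, 1593 to 3203 and 5596 to 7323 against Con, 2 to 11, 15 to 107, 593 to 1072 and 3759 to 5854 against NCAC, 0 to 516 for NCAC against Con at 4 weeks and 857 to 2825 that changed.

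Of the single-gene differences outside the 10 chemokines, 36 calls were lost and 11 gained on rescaling, 19 and 8 with only the compared groups, 12 and 0 without a filter, 11 and 1 with the block and 3 and 4 with a pseudocount of 0.1; 0 reversed. Of 96 chemokine differences a pseudocount of 0.1 moved 8 beyond the spread between libraries, and rescaling 1. Unknown depth limits Ccl2, Ccl7 and Cxcl1, which lie near or under 1 TPM.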
